A study of Homo sapiens with 16 samples.

Results

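The plasma proteins of coagulation, fibrinolysis and complement are made in the liver, and their mRNAs were followed here in HepG2, an established human liver cancer line that secretes many of them. Of 39 genes listed by name for these systems, without the fibrinogen chains, 38 were among the 16558 genes measured and F9 was not analysed here. The clones carried PNPLA3 edited at the I148M position, PNPLA3 being a lipase of lipid droplets, with 3 GG, 3 GC and 2 CC clones. Every clone gave 1 control library and 1 library after 250 µM palmitic acid, a long-chain saturated fatty acid common in the diet, for 48 h according to the protocol. A genotype was therefore represented by a few lines of 1 clone each, n counts clones, and treatment was not repeated within a clone.

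Coagulation runs as a cascade of serine proteases. Vitamin K-dependent factors and the contact system lead to thrombin, serpins and protein C restrain it, and plasmin dissolves the fibrin that forms. Complement is a second protease cascade, in which the classical, lectin and alternative routes meet at C3 and end in a pore built from C5 and the later components. Nearly all of these proteins are secreted by hepatocytes under liver factors such as HNF4A and the C/EBP proteins, while CD46, CD55 and CD59 sit on the surface of most cells and protect them from complement.

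Expression was measured by RNA-seq of ribosomal RNA-depleted total RNA, with 9314342 to 15777669 reads and 15662 to 16206 detected genes per library. A unit below is 1 CPM (counts scaled to library size) after the authors' TMM scaling between libraries. Differences are on the scale of log2(units + 0.5), and "called" means an adjusted p under 0.05 in limma over all 13095 genes whose mean reached 1 unit. Of the 38 members 37 passed that filter, and KLKB1, plasma prekallikrein, did not, with 0 to 15 reads per library. The cell type was checked on 9 hepatocyte markers, which summed to 22075 to 56223 units in control libraries. APOB and AFP had the highest control means of the 9, at 15650 and 12445 units. Single markers differed between control clones, with ALB at 17.7 to 807 units and TTR at 3.46 to 145. Of 7 endothelial markers 4 were measured and summed to 9.44 to 33.7 units over all libraries. PECAM1 was at 1.03 to 18.2, LYVE1 at 0.197 to 32.4, CDH5 at 0 to 1.69 and STAB2 at 0 to 0.401. Of 7 macrophage markers 3 were measured, and these were led by LYZ at 371 to 1054 units. CD68 was at 5.38 to 19.9 and CD14 at 0.446 to 4.53. Of 7 stellate and fibroblast markers 5 were measured and summed to 59.4 to 133.9 units, with COL1A1 at 0 to 1.84 and DES at 0 to 0.724.

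1 clone stood apart. The median response of the 37 tested members to palmitic acid was -1.06 in CC clone 3 and between -0.33 and -0.05 in the other 7 clones, and CC clone 3 gave the lowest response of the 8 clones for 26 members. The hepatocyte markers moved with it, with a median of -1.39 in this clone against -0.47 to -0.05 in the others, while the median of all 13095 genes was -0.01. Its treated library was also the shallowest, at 9314342 reads. The part of these differences in the member values was not tested, and members whose call or value changed by over 1.5 times without this clone are given without it as well. MASP1 and CD55, which differed more between clones than under treatment, were at 34.2 and 74.0 units in its control and at 26.5 and 85.3 in its treated library.

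Promoter stretches of the genes with the largest falls, and of the member holding an HNF4 element, are shown here because liver factors are known to bind such elements in genes of this kind. The RefSeq table on GRCh38.p14 had a promoter for 30 of the 38 members. It had none for SERPINC1 and SERPINF2, which had the next largest falls and are not shown. Each sequence runs 5′ to 3′ on the strand of the gene, holds 250 bases and ends at the base before a RefSeq start. These starts differ from the gene positions given below. By those positions the stretches of KNG1, F13B and C8B end inside the gene. Capitals mark the TTGCNNAA element of C/EBP proteins in KNG1 and the CAAAGTCCA element of HNF4 in PROZ, each searched on both strands.
KNG1, chr3:186717109-186717358, plus strand: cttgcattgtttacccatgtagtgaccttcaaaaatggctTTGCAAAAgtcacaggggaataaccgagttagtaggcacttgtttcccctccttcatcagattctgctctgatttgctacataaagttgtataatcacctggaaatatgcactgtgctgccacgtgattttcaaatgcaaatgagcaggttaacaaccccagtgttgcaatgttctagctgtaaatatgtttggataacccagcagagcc
F13B, chr1:197067261-197067510, minus strand: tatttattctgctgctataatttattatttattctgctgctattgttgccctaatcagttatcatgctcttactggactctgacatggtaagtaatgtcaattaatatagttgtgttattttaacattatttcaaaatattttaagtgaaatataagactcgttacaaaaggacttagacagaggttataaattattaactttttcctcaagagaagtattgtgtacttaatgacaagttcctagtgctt
C8A, chr1:56854547-56854796, plus strand: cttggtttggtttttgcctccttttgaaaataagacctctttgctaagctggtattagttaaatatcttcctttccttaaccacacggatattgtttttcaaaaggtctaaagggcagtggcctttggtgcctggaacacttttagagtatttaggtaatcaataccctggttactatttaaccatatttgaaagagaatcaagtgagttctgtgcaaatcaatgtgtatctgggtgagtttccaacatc
C8B, chr1:56966016-56966265, minus strand: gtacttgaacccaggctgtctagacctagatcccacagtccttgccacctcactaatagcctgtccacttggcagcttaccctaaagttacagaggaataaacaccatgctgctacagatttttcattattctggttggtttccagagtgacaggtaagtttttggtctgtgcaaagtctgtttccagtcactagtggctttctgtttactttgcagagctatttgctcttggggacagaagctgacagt
PROZ, chr13:113158398-113158647, plus strand: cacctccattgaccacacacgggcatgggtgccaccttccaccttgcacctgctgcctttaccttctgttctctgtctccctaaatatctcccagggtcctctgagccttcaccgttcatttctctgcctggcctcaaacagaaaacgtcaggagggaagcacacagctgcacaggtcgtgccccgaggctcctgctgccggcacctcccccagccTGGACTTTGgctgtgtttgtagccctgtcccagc

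The C/EBP element stood 210 to 203 bases before the RefSeq start in KNG1, which had the largest fall. The HNF4 element was found in PROZ alone among the 30 members with a promoter, 34 to 26 bases before the RefSeq start on the opposite strand. It was in 0.325% of all 35116 promoters on file, a share per promoter and not per gene. PROZ did not pass the test. The C/EBP element was found in 7 members, KNG1, KLKB1, PROC, C1R, CPB2, VTN and CD59, each counted if any of its promoters held it. Of these KNG1, PROC, C1R and CPB2 fell over genotypes, VTN and CD59 were not called and KLKB1 was not tested. The 30 members had 41 promoters. Of all promoters 9.05% held the element, again a share per promoter, so the count of members cannot be set against it. No 2 of these elements overlapped in a member, and no match in F13B, C8A and C8B says only that these letters are not in the 250 bases shown.

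In control cells the members ranged from a few reads to among the abundant mRNAs. Per kilobase of exon, the protease trap A2M was the most abundant at a mean of 1283 units, followed by complement C3 at 707 and by the plasmin inhibitor SERPINF2 and the thrombin inhibitor SERPIND1 at 214 and 212. SERPINF2 and SERPIND1 overlapped over the 8 clones, with 128 to 303 and 163 to 297 units per kilobase. At the other end were KLKB1 at 0.103, plasminogen PLG at 0.407 and factor XII at 0.565 units per kilobase. PLG and F12 overlapped as well, at 0.253 to 0.627 and 0.278 to 1.03, so their order is within the spread of the clones. Among the members with reads in every control library, clones differed most in KNG1, whose highest control library was 32.4 times the lowest, and least in CD59, at 1.33 times. C8G and SERPING1 also spread widely, by 15.6 and 15.5 times, C8G on 3 to 57 reads per library.

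Under palmitic acid many secreted factors were lower than in the control of the same clone, and none was called higher. Over the 3 genotypes 20 of the 37 tested members fell and 0 rose (limma with each clone compared with itself). Of all tested genes 9.52% fell and 9.33% rose, together 18.9%. The median member was at -0.32, against -0.01 for all tested genes, and 31 of 37 were below 0. The falls lay among the 34 secreted members, 20 of which fell, while the 3 membrane regulators gave 0 calls. In bulk RNA, fewer hepatocyte-like cells and less RNA per cell cannot be told apart.

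The falls were found in single clones too. All 8 clones were lower under palmitic acid for 15 members, while 6.79% of tested genes were lower in all 8, and 0 members were higher in all 8, against 6.77%. All 15 were among the 20 called. In the fit without CC clone 3, 15 members fell and 1 rose, against 4.49% and 5.09% of tested genes, and the median member was at -0.21. Of the 20 calls 14 were kept there, and 12 were kept whichever of the 8 clones was left out: F2, F11, KNG1, F13B, SERPINC1, SERPIND1, SERPINF2, C1R, C5, C8A, C8B and SERPING1. The same 12 were called by edgeR and DESeq2 on the recovered reads.

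The contact system held the largest fall. KNG1 encodes kininogen, the cofactor of the contact proteases and source of bradykinin (ENSG00000113889.13, chromosome 3, 186717276 to 186744410, plus strand). KNG1 went from 17.4 to 3.45 units in GG clone 1, from 5.39 to 2.45 in GG clone 2, from 9.62 to 2.83 in GG clone 6, from 19.2 to 5.04 in GC clone 2, from 37.9 to 5.70 in GC clone 3, from 158 to 19.2 in GC clone 4, from 38.97 to 12.2 in CC clone 1 and from 4.87 to 0.325 in CC clone 3. It was lower under palmitic acid in 8 of 8 clones, while the ranges over clones overlapped, since GC clone 4 under palmitic acid lay above the controls of GG clones 1, 2 and 6, GC clone 2 and CC clone 3. The log2 difference was -2.08 ± 0.17 (SE, n = 8 clones, limma adjusted p = 8.56e-05), and -1.91 without CC clone 3, whose treated library held 3 KNG1 reads. F11, the zymogen of factor XIa, fell by 0.55 ± 0.08 on the log2 scale (adjusted p = 0.00177). F11 went from 11.1 to 9.02 units in GG clone 1, from 12.1 to 8.17 in GG clone 2, from 15.4 to 13.2 in GG clone 6, from 13.8 to 9.80 in GC clone 2, from 15.3 to 10.1 in GC clone 3, from 35.2 to 20.6 in GC clone 4, from 14.5 to 10.6 in CC clone 1 and from 8.78 to 4.23 in CC clone 3. All 8 clones were lower. F12, which starts the contact route, was at 0.43 ± 0.16 and did not pass (adjusted p = 0.0908), on 7 to 43 reads per library. It was higher in 7 clones, which ranged from 0.569 to 2.11 units in control and from 0.639 to 3.45 under palmitic acid, and lower in CC clone 3.

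Among the vitamin K-dependent procoagulants, prothrombin and factor VII fell and factor X was not called. F2 went from 187 to 166 units in GG clone 1, from 282 to 232 in GG clone 2, from 231 to 205 in GG clone 6, from 217 to 160.4 in GC clone 2, from 203 to 178 in GC clone 3, from 356 to 323 in GC clone 4, from 202 to 164 in CC clone 1 and from 273 to 169 in CC clone 3. F2, prothrombin, was lower in 8 of 8 clones (-0.32 ± 0.06, limma adjusted p = 0.00382). F7 starts the tissue factor route and had a log2 difference of -0.43 ± 0.13 (adjusted p = 0.0365). It was lower in 7 clones and higher in GC clone 4, at 29.1 and 35.5 units. Its call was lost without CC clone 3 (-0.23, adjusted p = 0.212), and also without GG clones 1, 2 or 6 or GC clones 2 or 3, where the adjusted p ran from 0.0639 to 0.0993. F10, where the clotting routes meet, was at -0.16 ± 0.10 (adjusted p = 0.308), with 4 clones up, 4 down and -1.06 in CC clone 3, and stood at 0.04 without that clone. F7, F10 and PROZ lie side by side on chromosome 13, from 113105788 to 113172383.

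The other clotting factors split. F13B is the carrier subunit of factor XIII, which crosslinks fibrin (ENSG00000143278.4, chromosome 1, 197038741 to 197067267, minus strand). F13B went from 2.42 to 0.470 units in GG clone 1, from 3.01 to 1.71 in GG clone 2, from 5.43 to 1.46 in GG clone 6, from 2.62 to 0.613 in GC clone 2, from 1.44 to 0.562 in GC clone 3, from 10.8 to 1.41 in GC clone 4, from 1.52 to 0.281 in CC clone 1 and from 1.84 to 0 in CC clone 3. All 8 clones were lower. The treated library of CC clone 3 had 0 F13B reads, which allows up to 3 reads or 0.325 units by counting error alone. The log2 difference was -1.57 ± 0.20 (adjusted p = 0.00076) and -1.43 without that clone, on 0 to 134 reads per library. F5, the cofactor of factor Xa, was at 0.01 ± 0.08 (adjusted p = 0.935), with 95.2 to 307 units in control and 124 to 303 under palmitic acid. It was at 0.09 without CC clone 3, and its sign turned when GG clone 6, GC clone 2 or CC clone 1 was left out.

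Of 5 clotting inhibitors, 3 fell. SERPINC1 encodes antithrombin (ENSG00000117601.13, chromosome 1, 173903804 to 173917378, minus strand) and had the smallest adjusted p of the members after KNG1. SERPINC1 went from 129 to 77.1 units in GG clone 1, from 114 to 61.5 in GG clone 2, from 139.6 to 72.9 in GG clone 6, from 105 to 53.4 in GC clone 2, from 147 to 75.5 in GC clone 3, from 213 to 163 in GC clone 4, from 139 to 75.2 in CC clone 1 and from 120.1 to 40.6 in CC clone 3. All treated libraries but that of GC clone 4 lay below every control. The log2 difference was -0.95 ± 0.09 (adjusted p = 0.000104), and -0.83 without CC clone 3. SERPIND1, heparin cofactor II, fell by 0.35 ± 0.06 (adjusted p = 0.00363), with 7 clones lower and GG clone 6 at 417 and 445 units. PROC, protein C, was at -0.20 ± 0.05 (adjusted p = 0.0187) and lower in 8 of 8 clones, but was not called without CC clone 3 (-0.16, adjusted p = 0.0926) or GC clone 3 (-0.20, 0.0534). PROS1, the cofactor of protein C, was at 0.02 ± 0.06, and PROZ, the cofactor of a factor Xa inhibitor, at -0.35 ± 0.12 (adjusted p = 0.0592). PROZ was at -0.19 when CC clone 3 was left out (adjusted p = 0.322).

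**Figure D1:**
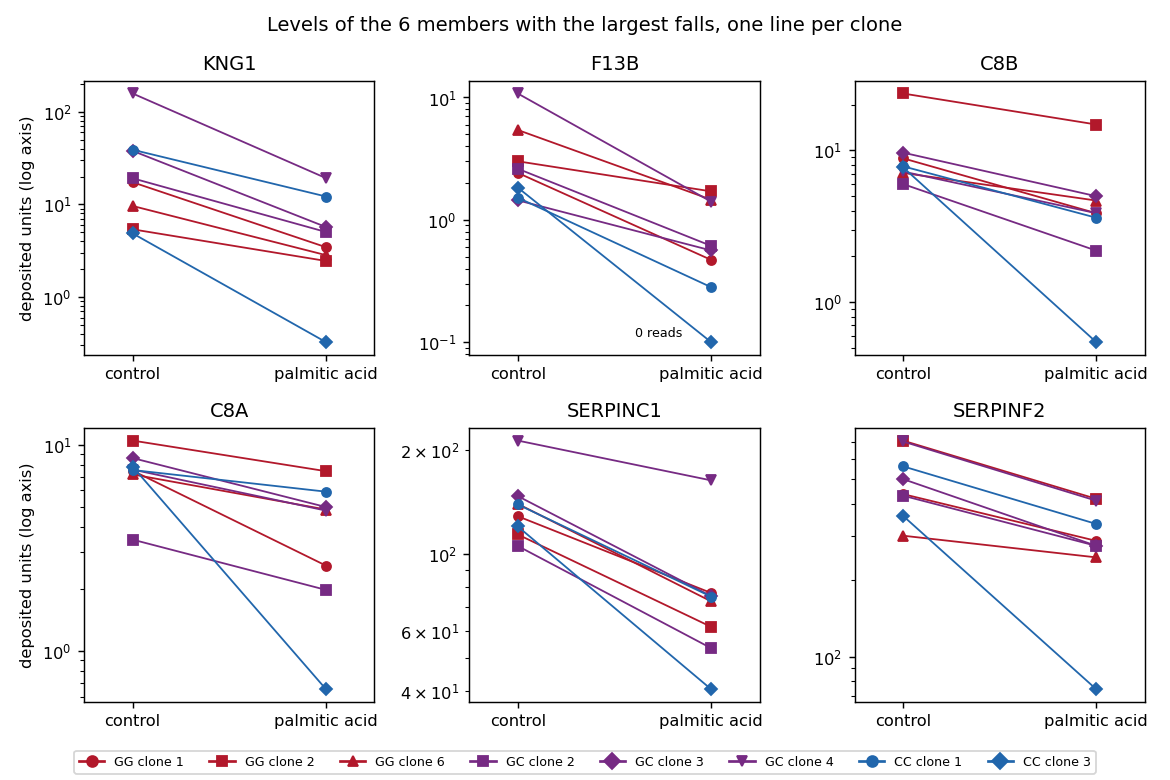
Levels (deposited units, log axes) of KNG1, F13B, C8B, C8A, SERPINC1 and SERPINF2 in control and under palmitic acid, with 1 line per clone. Every line falls, and the treated library of CC clone 3 is the lowest point in all 6 panels, with F13B at 0 reads there.

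In fibrinolysis the inhibitors fell, and plasminogen had few reads. SERPINF2 encodes the main inhibitor of plasmin (ENSG00000167711.13, chromosome 17, 1742836 to 1755268, plus strand). SERPINF2 went from 438 to 286 units in GG clone 1, from 712 to 419 in GG clone 2, from 300.3 to 247 in GG clone 6, from 432 to 274 in GC clone 2, from 502 to 274 in GC clone 3, from 706 to 412 in GC clone 4, from 564 to 334 in CC clone 1 and from 360.1 to 74.5 in CC clone 3. All 8 clones were lower, with responses of -0.28 to -0.87 in 7 clones and -2.26 in CC clone 3. The log2 difference was -0.94 ± 0.13 (adjusted p = 0.00101), and -0.69 without CC clone 3 (adjusted p = 0.000143). A2M, a trap for many proteases, had control levels of 2919 to 10249.7 units and treated levels of 2219.9 to 8578, with a log2 difference of -0.39 ± 0.11 (adjusted p = 0.0292). CPB2, which removes the plasminogen-binding ends of fibrin, was at -0.24 ± 0.07 (adjusted p = 0.0294). Neither call held when CC clone 3 was left out (-0.23, adjusted p = 0.130, and -0.18, 0.146). A2M was called in 2 and CPB2 in 3 of the 8 fits that leave out 1 clone: for A2M the call was also lost without GG clones 1 or 2 or any GC clone (-0.36 to -0.41, adjusted p 0.0567 to 0.0843), and for CPB2 without GG clones 1 or 6 or GC clones 3 or 4 (-0.20 to -0.24, 0.0646 to 0.0841). PLG was at -0.19 ± 0.16 (adjusted p = 0.437) on 6 to 27 reads per library, and at -0.03 without CC clone 3.

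The proteases of the classical and lectin routes fell, and their substrates were not called. C1R, the protease that activates C1s, was lower in 8 of 8 clones (-0.89 ± 0.16, adjusted p = 0.00423), on 4 to 65 reads per library. C1R went from 3.94 to 1.88 units in GG clone 1, from 5.15 to 3.57 in GG clone 2, from 2.75 to 1.64 in GG clone 6, from 2.45 to 1.29 in GC clone 2, from 3.35 to 2.49 in GC clone 3, from 3.78 to 1.41 in GC clone 4, from 2.66 to 1.62 in CC clone 1 and from 3.03 to 0.434 in CC clone 3. Without CC clone 3 the difference was -0.66 (adjusted p = 0.0182). C1S, its neighbour on chromosome 12, was at -0.35 ± 0.10 (adjusted p = 0.0291) and lower in 8 of 8 clones. It was called in 2 of the 8 fits that leave out 1 clone, those without GC clone 3 or CC clone 1, and stood at -0.21 (adjusted p = 0.167) without CC clone 3 and at -0.31 to -0.36 (0.0510 to 0.0808) without each of the other 5. The lectin proteases were lower in 8 of 8 clones as well, MASP1 at -0.32 ± 0.08 (adjusted p = 0.0198) and MASP2 at -0.48 ± 0.11 (adjusted p = 0.0114). MASP2 was not called without CC clone 3 (-0.35, adjusted p = 0.0659), nor MASP1 without GC clone 3 (-0.31, 0.0584).

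C2 and C4B, the substrates of these proteases, were at -0.13 ± 0.10 and -0.21 ± 0.15. Both were above 0 without CC clone 3, at 0.04 and 0.06. C4B is uncertain, since 88.4% of the 100-base windows of its transcript are also found in C4A, which was at -0.17 ± 0.13. C2, CFB and C4B lie together on chromosome 6, from 31897785 to 32035418, and 0 of the 3 were called.

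In the terminal pathway C5 and 2 chains of C8 fell while C3 did not pass. C8A and C8B, whose proteins join the membrane attack complex after C5 has been cleaved, are neighbours on chromosome 1 and are transcribed towards each other, from 56854806 to 56918221 and from 56966140 to 56929210. C8A went from 7.47 to 2.59 units in GG clone 1, from 10.46 to 7.43 in GG clone 2, from 7.16 to 4.84 in GG clone 6, from 3.46 to 1.97 in GC clone 2, from 8.60 to 4.98 in GC clone 3, from 7.56 to 4.78 in GC clone 4, from 7.53 to 5.91 in CC clone 1 and from 7.82 to 0.651 in CC clone 3. C8B went from 8.86 to 3.84 units in GG clone 1, from 23.7 to 14.8 in GG clone 2, from 7.09 to 4.66 in GG clone 6, from 5.99 to 2.18 in GC clone 2, from 9.65 to 4.98 in GC clone 3, from 7.24 to 3.85 in GC clone 4, from 7.84 to 3.59 in CC clone 1 and from 7.74 to 0.542 in CC clone 3. Both were lower in 8 of 8 clones, and in CC clone 3 only 6 and 5 reads remained. The log2 difference was -1.02 ± 0.22 for C8A (adjusted p = 0.0101) and -1.26 ± 0.18 for C8B (adjusted p = 0.00121), and without CC clone 3 it was -0.59 (adjusted p = 0.0185) and -0.94 (adjusted p = 0.000743). C8A thus moved by more than 1.5 times with 1 clone. C8G, which encodes the third chain on chromosome 9, was at 0.08 ± 0.17 (adjusted p = 0.768), higher in 6 of 8 clones, and at 0.27 without CC clone 3 (adjusted p = 0.386).

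C5, the source of the C5a peptide, fell in a way that did not rest on CC clone 3. C5 went from 136 to 97.3 units in GG clone 1, from 705 to 347 in GG clone 2, from 266 to 256 in GG clone 6, from 313 to 218 in GC clone 2, from 234 to 163 in GC clone 3, from 167 to 86.4 in GC clone 4, from 137 to 81.6 in CC clone 1 and from 317 to 178 in CC clone 3. The response lay between -0.05 in GG clone 6 and -1.02 in GG clone 2, and the difference was -0.66 ± 0.09 (adjusted p = 0.0012), or -0.64 without CC clone 3. C3, the hub of the cascade, had 2599 to 4877 units in control and 2004 to 4079.5 under palmitic acid (-0.37 ± 0.13, adjusted p = 0.0617). Its response was -1.28 in CC clone 3 and -0.55 to 0.06 in the others, and without that clone the difference was -0.17 (adjusted p = 0.322). CFB, the protease of the alternative route, was at -0.25 ± 0.14 (adjusted p = 0.229) and at 0.01 without CC clone 3.

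The soluble regulators differed from each other. SERPING1 encodes the C1 inhibitor, which also blocks the contact proteases (ENSG00000149131.15, chromosome 11, 57597387 to 57614853, plus strand). SERPING1 went from 26.9 to 20.4 units in GG clone 1, from 14.4 to 6.46 in GG clone 2, from 39.1 to 43.6 in GG clone 6, from 5.49 to 2.45 in GC clone 2, from 57.9 to 35.2 in GC clone 3, from 53.4 to 19.9 in GC clone 4, from 85.2 to 56.4 in CC clone 1 and from 70.5 to 27.7 in CC clone 3. It was lower in 7 clones and higher in GG clone 6. The log2 difference was -0.82 ± 0.13 (adjusted p = 0.0025), and -0.69 without CC clone 3. C4BPA, the alpha chain of C4b-binding protein, was lower in 8 of 8 clones, with responses of -0.05 to -0.74 in 7 of them and -2.30 in CC clone 3. Its difference of -0.64 ± 0.16 (adjusted p = 0.0188) shrank to -0.33 without CC clone 3 (adjusted p = 0.0412) and was not called without GC clone 3 (-0.58, adjusted p = 0.0565). The beta chain C4BPB, its neighbour on chromosome 1, was at -0.12 ± 0.10, and CFI, which cleaves C3b and C4b, at -0.27 ± 0.09 (adjusted p = 0.0598). CFI was at -0.12 (adjusted p = 0.329) and C4BPB at 0.0026 when CC clone 3 was left out.

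VTN, vitronectin, inhibits the membrane attack complex and was called only when 1 clone was left out. VTN went from 68.1 to 87.9 units in GG clone 1, from 99.7 to 135 in GG clone 2, from 109 to 119.8 in GG clone 6, from 111 to 128 in GC clone 2, from 97.8 to 99.6 in GC clone 3, from 67.3 to 125 in GC clone 4, from 61.6 to 84.0 in CC clone 1 and from 129.8 to 61.2 in CC clone 3. It was higher in 7 clones and lower in CC clone 3. Over all clones the difference was 0.12 ± 0.14 (adjusted p = 0.572), without CC clone 3 it rose by 0.38 ± 0.10 (adjusted p = 0.0348), and without CC clone 1 it was at -0.13.

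The 3 membrane regulators, whose proteins protect the cell itself, gave 0 calls with all clones. CD46 was at 0.02 ± 0.05, CD55 at -0.18 ± 0.09 and CD59 at -0.03 ± 0.07 (adjusted p 0.759, 0.167 and 0.794). Without CC clone 3, CD55 fell by 0.31 (adjusted p = 0.0261), while CD46 was at -0.0015 and CD59 at -0.12. In CC clone 3 these were the 3 members higher under palmitic acid, by 0.05, 0.20 and 0.39, and the other 34 were lower. CD46 varied little, with 195 to 266 units in control and 198 to 276 under palmitic acid.

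**Figure D2:**
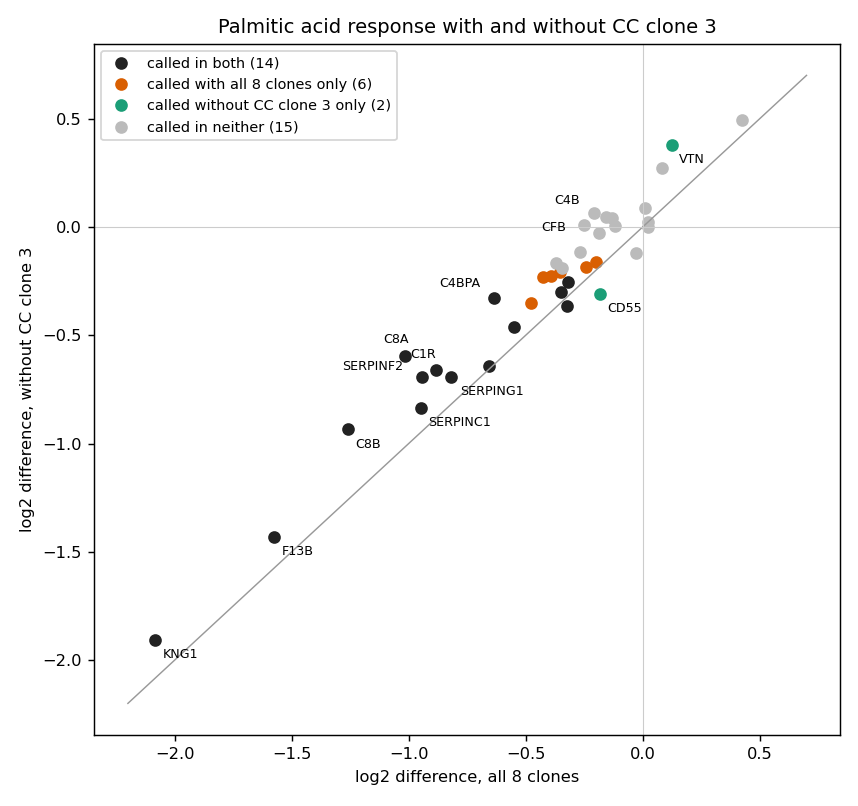
Log2 difference under palmitic acid over genotypes from all 8 clones (x axis) and without CC clone 3 (y axis) for the 37 tested members, with the line of equal values. Black points (14) were called in both fits, orange points (6) with all clones only, green points (VTN and CD55) without CC clone 3 only, and grey points (15) in neither.

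Less abundant members made up more of the calls. Of the 19 members with the higher control level per kilobase 8 fell, with a median of -0.24, and of the 18 with the lower level 12 fell, with a median of -0.45. This is a description across genes of unequal precision, and the difference was not tested.

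Within a genotype fewer members passed, and KNG1 and SERPINC1 did so in all 3. In GG clones these 2 fell and 0 members rose, while 0.267% of tested genes fell, 0.573% rose and 0.84% did either. KNG1 was at -1.59 ± 0.27 (SE, n = 3 clones, adjusted p = 0.0285) and SERPINC1 at -0.85 ± 0.14 (0.0245). In GC clones 5 members fell and 0 rose, against 0.664%, 0.878% and 1.54% of tested genes: KNG1 (-2.49 ± 0.27, adjusted p = 0.00361), F13B (-1.64 ± 0.33), SERPING1 (-1.04 ± 0.21), SERPINC1 (-0.77 ± 0.14) and SERPIND1 (-0.49 ± 0.10). In CC clones 8 fell and 0 rose, against 1.45%, 0.848% and 2.3%: KNG1 (-2.17 ± 0.33), C8B (-2.01 ± 0.35), F13B (-1.80 ± 0.40), SERPINF2 (-1.51 ± 0.25), C4BPA (-1.37 ± 0.31), SERPINC1 (-1.22 ± 0.17), C5 (-0.78 ± 0.18) and F2 (-0.50 ± 0.11). The CC calls rest on 2 clones that differed. The median member response was -0.27 in CC clone 1 and -1.06 in CC clone 3, while the median of all tested genes was -0.01 in each.

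Whether genotype went with another response was tested directly, and 0 members were called. At an unadjusted p under 0.05 stood 3 members for GG minus GC, 9 for GG minus CC and 4 for GC minus CC, all higher in the first genotype. The share of all tested genes at this limit was not counted, so these counts cannot be read as a result about the members. Both contrasts with CC include CC clone 3, which had the lowest response of the 8 clones for 26 members. By edgeR and DESeq2, 0 members were called as well. The smallest p was that of C4BPA, whose response was 1.22 ± 0.41 higher in GG than in CC (unadjusted p = 0.0118, adjusted p = 0.797). Of all tested genes 0% were called for GG minus GC and 0.00764%, a single lower gene, for each contrast with CC. With CC clone 1 left out, so that CC was CC clone 3 alone, the C4BPA response was 2.15 higher in GG than in CC. It was 1.91 higher in GC than in CC. CD55 and CD59 went the other way, at -0.40 and -0.44 for GG minus CC. The C4BPA response itself was -0.44 in CC clone 1 and -2.30 in CC clone 3.

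Levels did not pass limma's test between genotypes for any member, in control or under palmitic acid. The count was 0 in each of the 6 comparisons by limma, edgeR and DESeq2, and of all tested genes limma called 0% or 0.00764%. Over all genes edgeR called 0 in each, and DESeq2 called 20, 0 and 2 in control (GG and GC, GG and CC, GC and CC) and 21, 1 and 21 under palmitic acid. At an unadjusted limma p under 0.05 stood, in the same order, 4, 0 and 0 members in control and 1, 4 and 7 under palmitic acid. Here too the share of all tested genes was not counted, and the counts cannot be read as a result about the members. The smallest p was that of F12 under palmitic acid, where GC clones had 2.98 ± 0.545 units (SD, n = 3) against 0.894 ± 0.27 for the 2 CC clones, a log2 difference of 1.32 ± 0.40 (SE, adjusted p = 0.580).

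Some groups did not overlap although no test passed. In control, all GG clones lay below all GC clones for 5 members, F7, F10, F12, KNG1 and C1S, and 0 lay the other way. This share of members was close to the 12.3% of tested genes that did not overlap in either direction. KNG1 stood at 5.39 to 17.4 units in GG and 19.2 to 158 in GC, and F10 at 30.7 to 45.3 and 52.1 to 65.5. Under palmitic acid 2 of these, F10 and KNG1, again did not overlap, a share of members below the 11.9% of genes. Between GG and CC in control F13B and SERPING1 did not overlap, a share of members below the 9.35% of all genes, with SERPING1 at 14.4 to 39.1 units in GG and 70.5 to 85.2 in CC.

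Against CC the counts were close to the background in control and above it under palmitic acid. In control 7 members did not overlap between GC and CC, against 23.2% of genes, with F10, PROC, PROS1, C1S and MASP2 higher in GC and SERPING1 and CD59 higher in CC. Under palmitic acid 11 members did not overlap between GG and CC, all higher in GG, against 11.6% of genes, and 13 between GC and CC, against 25.5%, with all but CD59 higher in GC. These counts include CC clone 3, whose treated library was low for most members, and CC has only 2 clones.

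**Figure D3:**
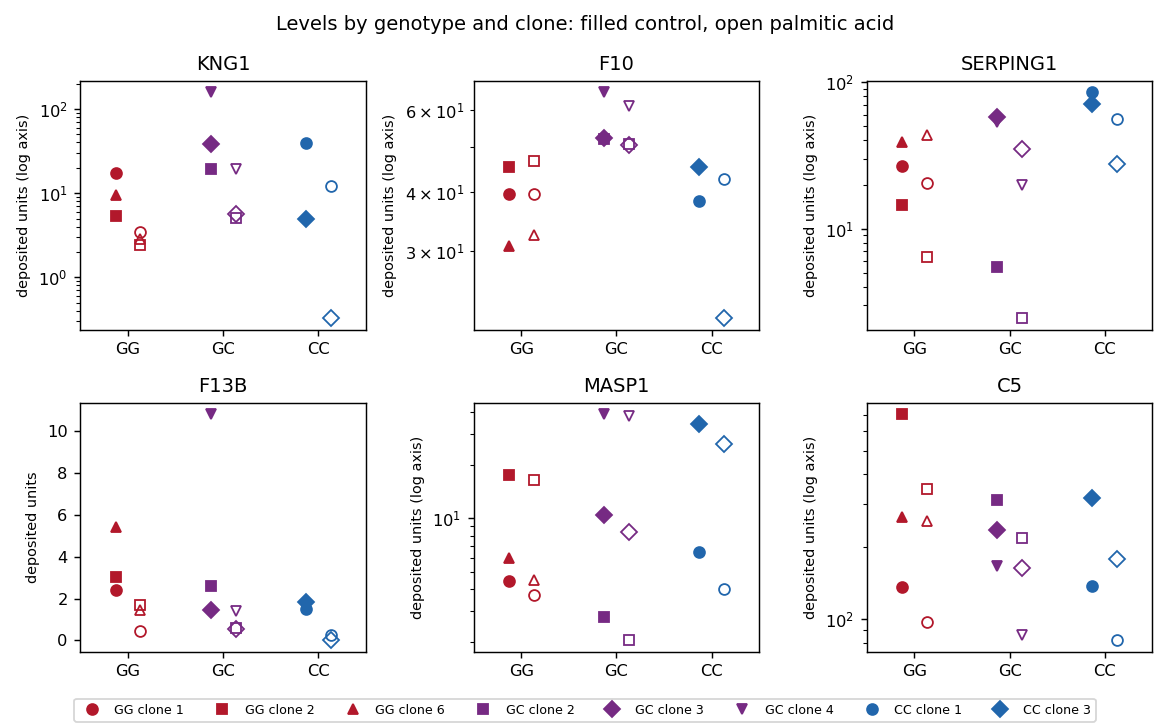
Levels (deposited units, log axes except F13B) of KNG1, F10, SERPING1, F13B, MASP1 and C5 by genotype, with 1 marker per clone, filled for control and open for palmitic acid. MASP1 spans 2.79 to 38.6 units between control clones while the 2 markers of a clone stay close, and KNG1 drops in every clone.

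Most of the variation of these genes lay between clones. Of the summed squares of the 37 members, clones of a genotype took 54.2% (5 degrees of freedom), genotypes 17.2% (2), palmitic acid 19.5% (1), the interaction 3.24% (2) and the residual 5.73% (5). Over all tested genes palmitic acid took 8.17% and clones 61.3%. Members differed in this: CD55 and MASP1 had 94.8% and 92.5% between clones, and SERPINC1 and F13B had 52.8% and 51.4% between palmitic acid and control. C5 ranged from 136 to 705 units between control clones of GG alone.

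Other genes of the same systems did not follow one direction. Of 19 further clotting and fibrinolysis genes 11 were tested, of which 4 rose and 0 fell over genotypes. S100A10, a partner of annexin A2 in binding plasminogen at the cell surface, rose by 0.68 ± 0.09 (adjusted p = 0.000854). S100A10 went from 38.4 to 57.6 units in GG clone 1, from 62.0 to 70.4 in GG clone 2, from 12.4 to 25.5 in GG clone 6, from 76.4 to 110.0 in GC clone 2, from 40.7 to 59.4 in GC clone 3, from 25.9 to 35.0 in GC clone 4, from 34.5 to 54.9 in CC clone 1 and from 23.1 to 55.0 in CC clone 3. All 8 clones were higher. The others that rose were SERPINE2 (1.00 ± 0.22), the protein C receptor PROCR (0.42 ± 0.13) and the protein C inhibitor SERPINA5 (0.34 ± 0.05). Without CC clone 3, S100A10 and SERPINA5 were called. F3 and TFPI, tissue factor and its inhibitor, were both at 0.01.

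Of 8 genes of the vitamin K cycle and of factor processing, FURIN, which cleaves propeptides, rose by 0.81 ± 0.11 and NQO1 by 0.40 ± 0.07, and GGCX, the carboxylase of the vitamin K-dependent factors, fell by 0.23 ± 0.05 (adjusted p = 0.00873). Of 33 further complement genes 10 were tested, of which 4 fell and 1 rose. CLU, clusterin, which blocks the membrane attack complex, was lower in 8 of 8 clones (-0.92 ± 0.08, adjusted p = 9.27e-05). The carboxypeptidase chains CPN1 and CPN2 fell by 0.56 ± 0.10 and 0.48 ± 0.10, C1RL by 0.38 ± 0.07, and the C5a receptor C5AR1 rose by 0.73 ± 0.17. C5AR1 was not called without CC clone 3 (adjusted p = 0.0633), and CPN2 was at -0.28 there.

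Liver transcription factors and hepatocyte markers are given beside these results, and their part in them was not tested. Of 13 transcription factors 5 fell, ONECUT1 (-0.78 ± 0.14), NR1H4 (-0.72 ± 0.13), CEBPB (-0.46 ± 0.10), CEBPA (-0.33 ± 0.07) and HNF4A (-0.27 ± 0.08), and CREB3L3 rose (0.95 ± 0.15). HNF4A was not called without CC clone 3 (-0.15, adjusted p = 0.145). Of 9 hepatocyte markers 5 fell, ALB, AFP, APOA1, APOH and TF, by 0.40 to 0.58, and all 9 were below 0, with a median of -0.40. Without CC clone 3 the median was -0.26, and only AFP, APOA1 and TF of these were called, at -0.36, -0.27 and -0.31. The summed level of the 9 markers was 16629.7 to 45607 units under palmitic acid. Single markers of other cells also moved, CD14 of macrophages at -1.03 ± 0.20 and PECAM1 of endothelium at -0.59 ± 0.12, each the 1 called of 3 and of 2 tested.

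All 3 tested markers of stellate cells and fibroblasts were called, in both directions. TAGLN rose by 1.2497 ± 0.30 (adjusted p = 0.016), PDGFRB rose by 1.12 ± 0.30 (adjusted p = 0.0251), and ACTA2 fell by 0.56 ± 0.12 (adjusted p = 0.00801), all encoding proteins of contractile or mesenchymal cells. The median of the 3 was 1.99 in CC clone 3, 2.13 in GC clone 3, 1.92 in GG clone 6 and -0.27 to 1.03 in the other 5 clones. With CC clone 3 left out TAGLN was at 0.94 (adjusted p = 0.0904) and PDGFRB at 0.96 (adjusted p = 0.112), and ACTA2 was called (-0.40, adjusted p = 0.0398). The part of these markers in the member values was not tested.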

How the data were processed

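RNA of 8 edited HepG2 clones was sequenced with and without palmitic acid, 1 library each. Build hg38, Trimmomatic 0.38, Bowtie2, RSEM 1.3.0 and edgeR are named in the submitters' processing notes; the annotation is not given in the sources used here, and kits that keep strand were used per the labels' protocols. The deposited signal is TMM-scaled CPM: each value was a whole multiple of 1 read (100% at a tolerance of 0.01), and scaling recomputed with edgeR 4.0.16 differed by at most 1.33e-15 of the value.

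On log2(deposited signal + 0.5), limma 3.58.1 in R 4.3.3 was fitted with a mean-variance trend to the 13095 genes whose mean reached 1, two-sided, with Benjamini-Hochberg adjustment over all of them at 0.05. Responses to palmitic acid used the clone as a block (5 residual degrees of freedom), weighting genotypes equally, and genotype levels used 6 group means (10). Pairing comes from the clone names in the titles. In a check, deviations from group means correlated at 0.523 to 0.857 within a clone, highest with its own partner in 8 of 8 clones; with 2 CC clones both CC values are the same 0.744 by construction. edgeR and DESeq2 1.42.0 on recovered reads were alternatives.

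Of each comparison, members were named if called with the 6 largest falls, if called elsewhere (up to 4 by p), and at least 1 per role; up to 4 called genes of each other list by p were named. Others were named after their values were seen. Members and lists were chosen with earlier results of these data known. Positions and exon lengths are from GENCODE v29 on GRCh38. On simulated data the fit was checked for the changes put in. Labels of single treated libraries run from 48 to 55 h; the protocol's 48 h is given, and hours entered no test. Some genes and a promoter element are not reported here and are left out of the list counts.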

Additional observations from a re-analysis of the deposited data

Results flagged for a closer look

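Of the 37 tested members, 14 had a clone whose palmitic acid response lay far from the other 7 by the 95% limit of Dixon's gap test, and in all 14 it was CC clone 3, as the lowest. Chance gives about 1 in 20 for each member, and the members share this 1 clone. On the log2 scale its response was -1.48 for F7, -1.06 for F10, -1.16 for PROZ, -2.26 for SERPINF2 and -1.28 for A2M. In complement it was -0.996 for C2, -1.28 for C3, -1.40 for CFB, -2.85 for C8A and -2.98 for C8B. Of the soluble regulators it was -0.97 for CFI, -2.30 for C4BPA, -0.79 for C4BPB and -1.08 for VTN. The nearest other clone was at -0.47 for F7, -0.87 for SERPINF2, -1.28 for C8B and 0.03 for VTN. KNG1 and SERPINC1 were not among the 14.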

How the results depend on the processing

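Without the replicate block, which ignores the pairing of libraries by clone, 0 members were called over genotypes and 0 in GG, GC or CC. Of all tested genes 6 were called over genotypes in that fit. At an unadjusted limma p under 0.05, 10 members fell and 0 rose there, and the share of all tested genes was not counted. Fold changes are equal in both fits. Over genotypes the other settings gave 16 to 20, and leaving out each clone in turn gave 14 (without GC clone 3) or more. Of all 13095 tested genes limma called 2469 over genotypes, edgeR 2418 and DESeq2 1918. In CC the count was 5 with a pseudocount of 0.1, 5 with median-ratio scaling, 4 by edgeR and 12 by DESeq2, against 8 by limma. Of all tested genes limma called 301 in CC, edgeR 215 and DESeq2 493. Leaving out each clone gave 0 to 6 calls in GG, 0 to 10 in GC, 0 to 28 in CC, 0 to 13 for GG minus CC and 0 to 11 for GC minus CC. All 20 called members stayed below 0 with each clone left out. The signs that turned were of members not called. Over the 8 fits that leave out 1 clone, the lowest value came without CC clone 1 and the highest without CC clone 3 for F10 (-0.3592 to 0.0445), F5 (-0.066 to 0.0883), C2 (-0.3016 to 0.0392), C4B (-0.4818 to 0.0632), CFB (-0.5049 to 0.0072), C8G (-0.1109 to 0.2721), C4BPB (-0.2411 to 0.0026) and VTN (-0.129 to 0.3787). For CD46 (-0.0015 to 0.0482) and CD59 (-0.1185 to 0.0591) it was the reverse. PROS1 ran from -0.0218 without GG clone 6 to 0.0527 without GC clone 4. F5 was also at -0.0401 without GG clone 6 and -0.0324 without GC clone 2, and CD59 at 0.0043 without GC clone 4. The cause of these changes was not tested. Depth limits F12, KNG1, KLKB1, F13B, PLG, C1R, C8A, C8B and C8G, whose lowest library held 0 to 7 reads.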
